A study of Mus musculus with 8 samples.

Results

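The genes described here are 9 members of the pathway by which cells respond to interferon, taken by name from a table of 24972 mouse genes: the receptor chains Ifnar1, Ifnar2, Ifngr1 and Ifngr2, the receptor-bound kinases Jak1 and Tyk2, the transcription factor Stat2, and the feedback inhibitors Socs1 and Socs3. All 9 were found and all 9 passed the filter on low values, which 13267 genes passed. RNA was sequenced from untreated primary fibroblasts grown out of mouse embryos at day 14 of gestation and passaged 2 times. There were 4 genotypes with 2 libraries each: wild type (WT), Tfam+/- (1 functional copy of Tfam, which encodes the protein that packages mitochondrial DNA), Zbp1-/- (no functional copy of Zbp1, which encodes a sensor of Z-form nucleic acids), and the double mutant Tfam+/-Zbp1-/-, which carries both. Whether each library had an embryo of its own is not stated in these sources, so p-values measure only the spread between these libraries, which may be technical. Several comparisons share the WT or the Tfam+/- libraries and are not independent of each other. They ask how each allele, and each allele in the presence of the other, went with the level of these 9 transcripts.

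Type I interferons bind a receptor made of Ifnar1 and Ifnar2, which carry the kinases Tyk2 and Jak1. Interferon gamma binds Ifngr1 and Ifngr2, which use Jak1 and Jak2. The kinases phosphorylate STAT proteins: downstream of the type I receptor, Stat2 joins a STAT partner and Irf9 in a complex named ISGF3 that binds a DNA element called the interferon-stimulated response element (ISRE), while STAT dimers bind the gamma-activated site (GAS). The receptors and kinases are generally present before any stimulus, whereas Stat2, Irf9, Usp18 and the Socs genes are known targets of the signal, and Socs1, Socs3 and Usp18 dampen it.

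The promoter sequences of the 4 members on which the results turn are shown first, because Stat2 and Socs1 hold an ISRE core while Socs3 and Ifnar1 hold a GAS core. The sequences are from RefSeq on the build GRCm38.p6 and run 5′ to 3′ along the gene's own strand, from 250 bases before the transcript start to 50 after it. The searched letters were GAAA, any 2 bases and GAAA for the ISRE core, on both strands, and TTCNNNGAA for the GAS core, which reads the same on both strands. Capitals mark the matches. The windows are chr10:128270248-128270547 on the plus strand for Stat2, chr16:10785487-10785786 on the minus strand for Socs1, chr11:117969317-117969616 on the minus strand for Socs3 and chr16:91484965-91485264 on the plus strand for Ifnar1.
Stat2: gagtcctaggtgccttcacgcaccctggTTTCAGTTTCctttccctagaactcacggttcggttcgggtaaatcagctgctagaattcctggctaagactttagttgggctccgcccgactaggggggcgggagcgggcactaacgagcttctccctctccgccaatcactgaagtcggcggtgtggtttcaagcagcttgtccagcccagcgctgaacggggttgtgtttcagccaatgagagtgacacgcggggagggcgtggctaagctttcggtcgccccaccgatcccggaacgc
Socs1: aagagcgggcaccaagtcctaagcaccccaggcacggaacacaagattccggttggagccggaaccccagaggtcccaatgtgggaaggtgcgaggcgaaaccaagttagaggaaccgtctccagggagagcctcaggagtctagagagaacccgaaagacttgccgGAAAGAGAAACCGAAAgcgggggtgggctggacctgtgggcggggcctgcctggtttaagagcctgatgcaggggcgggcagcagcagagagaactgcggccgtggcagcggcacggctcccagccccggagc
Socs3: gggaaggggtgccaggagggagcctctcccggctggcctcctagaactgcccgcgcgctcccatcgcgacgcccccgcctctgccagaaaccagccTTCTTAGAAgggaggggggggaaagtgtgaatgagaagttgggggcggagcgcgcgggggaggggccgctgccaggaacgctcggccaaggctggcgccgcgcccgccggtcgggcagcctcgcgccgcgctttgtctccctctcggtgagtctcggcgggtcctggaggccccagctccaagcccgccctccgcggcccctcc
Ifnar1: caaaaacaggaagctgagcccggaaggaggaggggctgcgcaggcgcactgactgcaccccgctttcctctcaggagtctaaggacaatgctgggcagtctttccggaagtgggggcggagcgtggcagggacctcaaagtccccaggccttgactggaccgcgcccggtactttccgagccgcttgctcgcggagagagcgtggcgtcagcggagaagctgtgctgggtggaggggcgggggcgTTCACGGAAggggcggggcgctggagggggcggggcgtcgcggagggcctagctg

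In the Stat2 promoter the ISRE core lay on the opposite strand and its first printed base was at position -222 from the start. Socs1 held 2 ISRE cores that overlap by 4 bases, at -83 and -77. The GAS core of Socs3 was at -154 and that of Ifnar1 at -5. Ifnar2 also held a GAS core, TTCCTGGAA at -214. Neither core was found in the windows of Ifngr1, Ifngr2, Jak1 and Tyk2, nor in those of Irf9. A promoter was available for 51 of 64 other listed genes of the pathway. Of these, 12 held the ISRE core, and all but Stat4 were interferon genes. Among 32851 promoters of the same length, 3.44% held the ISRE core and 8.3% the GAS core. A match describes the letters in the window and is not evidence of binding.

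Before the values, some properties of the libraries bear on how they are read. The values are normalized counts deposited by the authors, which summed to between 16752835 and 18303036 per library. Tfam was lower in the libraries labelled Tfam+/- (278 and 365 normalized counts) and Tfam+/-Zbp1-/- (424 and 375) than in the WT libraries (629 and 610), and Zbp1 was near the low end of the table in WT (7.34 and 3.19), so its level in the Zbp1-/- libraries (3.79 and 1.03) does not check that label. In Tfam+/- it was at 64.6 and 69.8, and in the double mutant at 0.862 and 2.69. All 9 fibroblast markers were above 10 normalized counts in every library, with sums from 499606 to 735317, while the sums were 186 to 493 for 6 epithelial, 233 to 386 for 4 endothelial, 359 to 904 for 4 muscle and 145 to 570 for 4 neural crest markers. The neural crest sums were 485 and 570 in the Zbp1-/- pair and 145 to 251 in the other libraries. All 14 macrophage and leukocyte markers were also above 10 in every library, with sums from 3016 to 8274. Over 13264 genes, the WT pair and the Tfam+/-Zbp1-/- pair differed by little more than counting noise (median squared difference 1.21 and 1.2 times the noise), while the Tfam+/- pair and the Zbp1-/- pair differed by 20.3 and 18.7 times the noise. The noise was computed as if the normalized counts were raw counts. Their scaling is not stated, so these multiples are approximate. Replicate 1 of Tfam+/- and replicate 2 of Zbp1-/- shared a shift. Over the genes tested, the difference of replicate 1 minus replicate 2 correlated at -0.70 between these genotypes. The 2 libraries were picked after the values were seen. A term common to them passed the threshold in 65.3% of genes tested. Most of the spread in that fit comes from the WT and double mutant pairs, so this share does not measure the shift. A gene is called here when its Benjamini-Hochberg adjusted p from limma, over all genes tested, is below 0.05. Log2 changes are also given without those 2 libraries, as values with no p: that leaves 1 Tfam+/- and 1 Zbp1-/- library, and the spread would come only from the WT and double mutant pairs. They are also given with the WT pair and the Tfam+/-Zbp1-/- pair each averaged to 1 sample. With that averaging no gene of the 13267 passed the threshold in any comparison by limma with Benjamini-Hochberg adjustment, although 275 to 972 had an unadjusted p below 0.05.

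**Figure D1:**
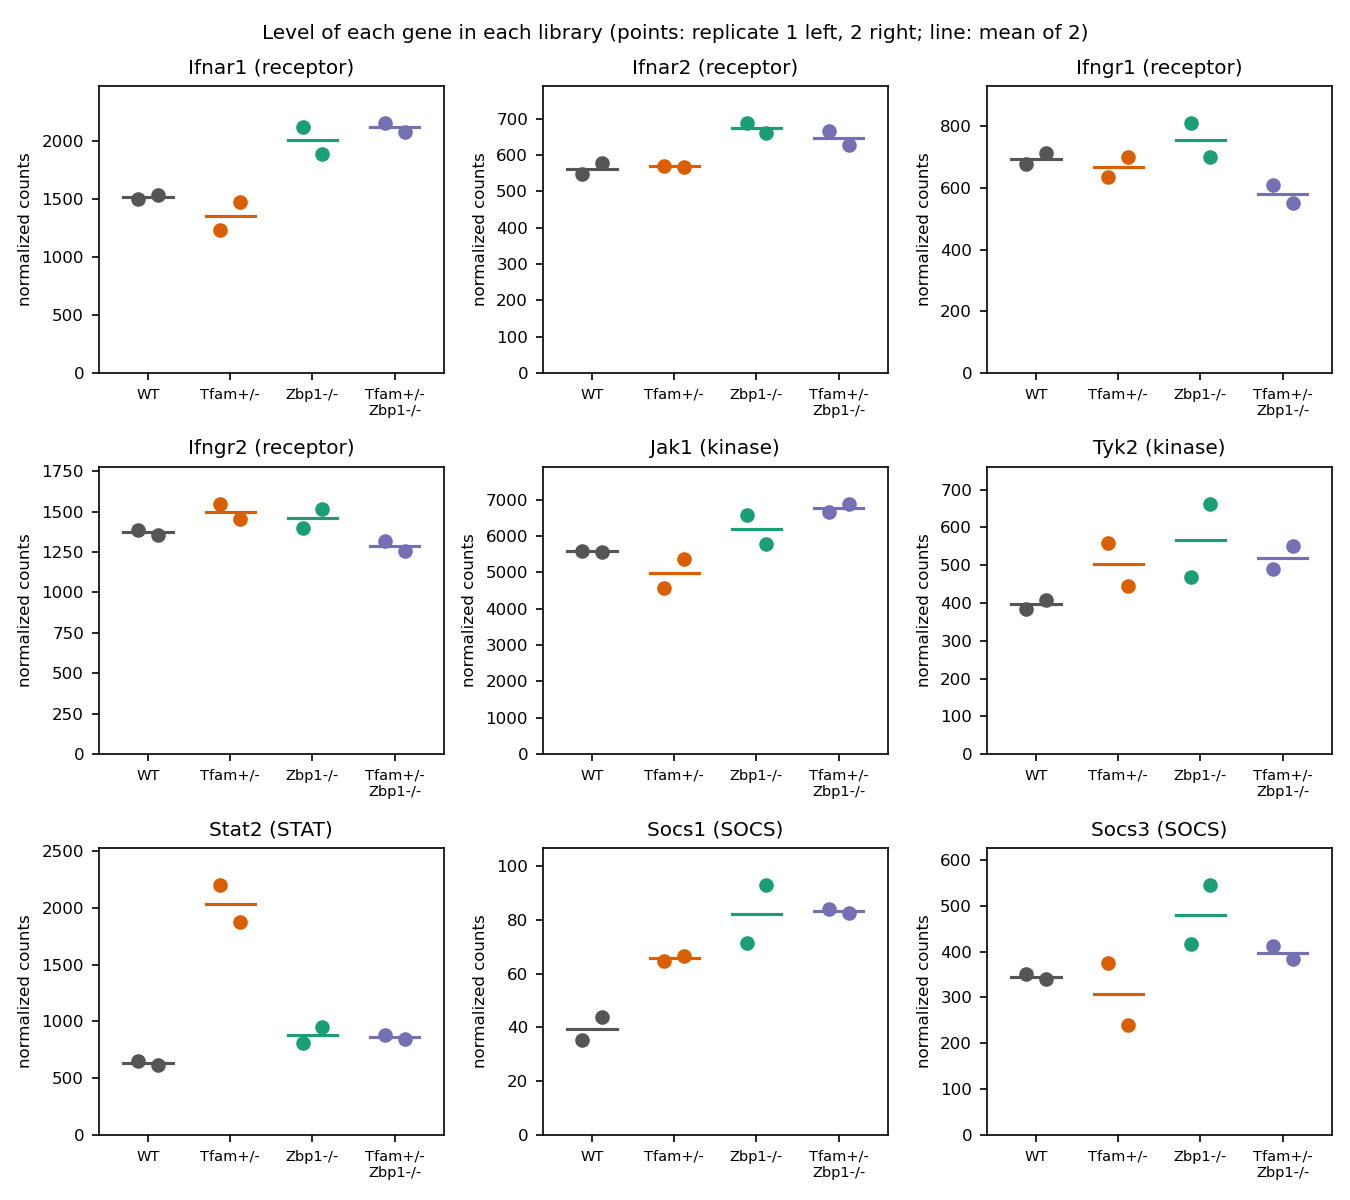
Normalized counts (vertical axis, linear and starting at 0, with its own scale per gene) of the 9 genes in each of the 8 libraries, grouped by genotype on the horizontal axis; points are libraries and lines are means of 2. Stat2 was at 2198 and 1877 in the Tfam+/- libraries and between 613 and 949 in the other 6.

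Stat2 was the member that differed most between the genotypes. It read 648 and 613 normalized counts in the WT pair, 2198 and 1877 in the Tfam+/- pair, 809 and 949 in the Zbp1-/- pair and 881 and 850 in the double mutant pair. Both Tfam+/- libraries were above the other 6, a property that 4.73% of all genes tested shared, and Stat2 was the only member that had it at the authors' scaling. With trimmed mean of M-values (TMM) rescaling, Ifngr2 joined it and the background share was 7.84%.

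In Tfam+/- against WT, Stat2 rose 3.22-fold (log2 change 1.69 ± 0.13 SE, 95% confidence interval 1.38 to 2.0, limma adjusted p = 0.0034). It was the 1 member of 9 called, where 0.731% of all genes were called. The call was lost without WT replicate 1 (adjusted p = 0.066), without WT replicate 2 (0.072) and with the 2 pairs averaged (0.4), while the log2 change stayed between 1.57 and 1.80 in all 19 alternatives. Without the 2 libraries that share a shift it was 1.57.

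Between Tfam+/-Zbp1-/- and Tfam+/-, Stat2 fell by 1.23 on the log2 scale (SE 0.13, limma adjusted p = 0.0045), to a level 2.35-fold lower. The call was lost without Tfam+/-Zbp1-/- replicate 1 (adjusted p = 0.07), without its replicate 2 (0.068) and with the pairs averaged (0.3). Stat2 and Ifnar1 were the 2 members of 9 called in this comparison, in opposite directions, where 5.64% of all genes were called.

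The interaction of the 2 genotypes asks whether the Tfam allele went with a different change when Zbp1 was absent. For Stat2 it was -1.70 ± 0.18 (SE) on the log2 scale, with adjusted p = 0.02 by limma, the 1 member of 9 called where 0.663% of all genes were called. The Tfam allele went with a log2 change of 1.69 in the presence of Zbp1, and with -0.02 (adjusted p = 0.95) between Tfam+/-Zbp1-/- and Zbp1-/-. The interaction was lost with the replicate number as a block (adjusted p = 0.11), without either WT library (0.2 and 0.18), without Zbp1-/- replicate 2 (0.062), without either Tfam+/-Zbp1-/- library (0.22 and 0.21) and with the pairs averaged (0.85). Its sign was negative in all 18 alternatives, from -1.82 to -1.47.

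Stat2 in Zbp1-/- against WT had a log2 change of 0.47 (adjusted p = 0.15), and in Tfam+/-Zbp1-/- against WT of 0.46 (adjusted p = 0.19); neither passed. Without the 2 libraries that share a shift, these were 0.36 and 0.46. The summed level of 14 macrophage and leukocyte markers, all detected, was 8274 and 6937 in the Tfam+/- pair, 5941 and 5894 in the WT pair, 3791 and 3753 in the Zbp1-/- pair and 3023 and 3016 in the double mutant pair. The sum of these markers was highest where Stat2 was highest, and their part in the result was not tested. Mean Ptprc was lower in Tfam+/- (132.6) than in WT (142), and mean Cd14 was highest in Zbp1-/- (137.7, against 122.9 in Tfam+/-). The other markers each had their highest mean in Tfam+/-. Mean sums of epithelial (409), endothelial (356) and muscle (747) markers were also highest in Tfam+/-, those of fibroblast and neural crest markers in Zbp1-/-. In bulk libraries, fewer cells of a type and less RNA per cell cannot be told apart.

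**Figure D2:**
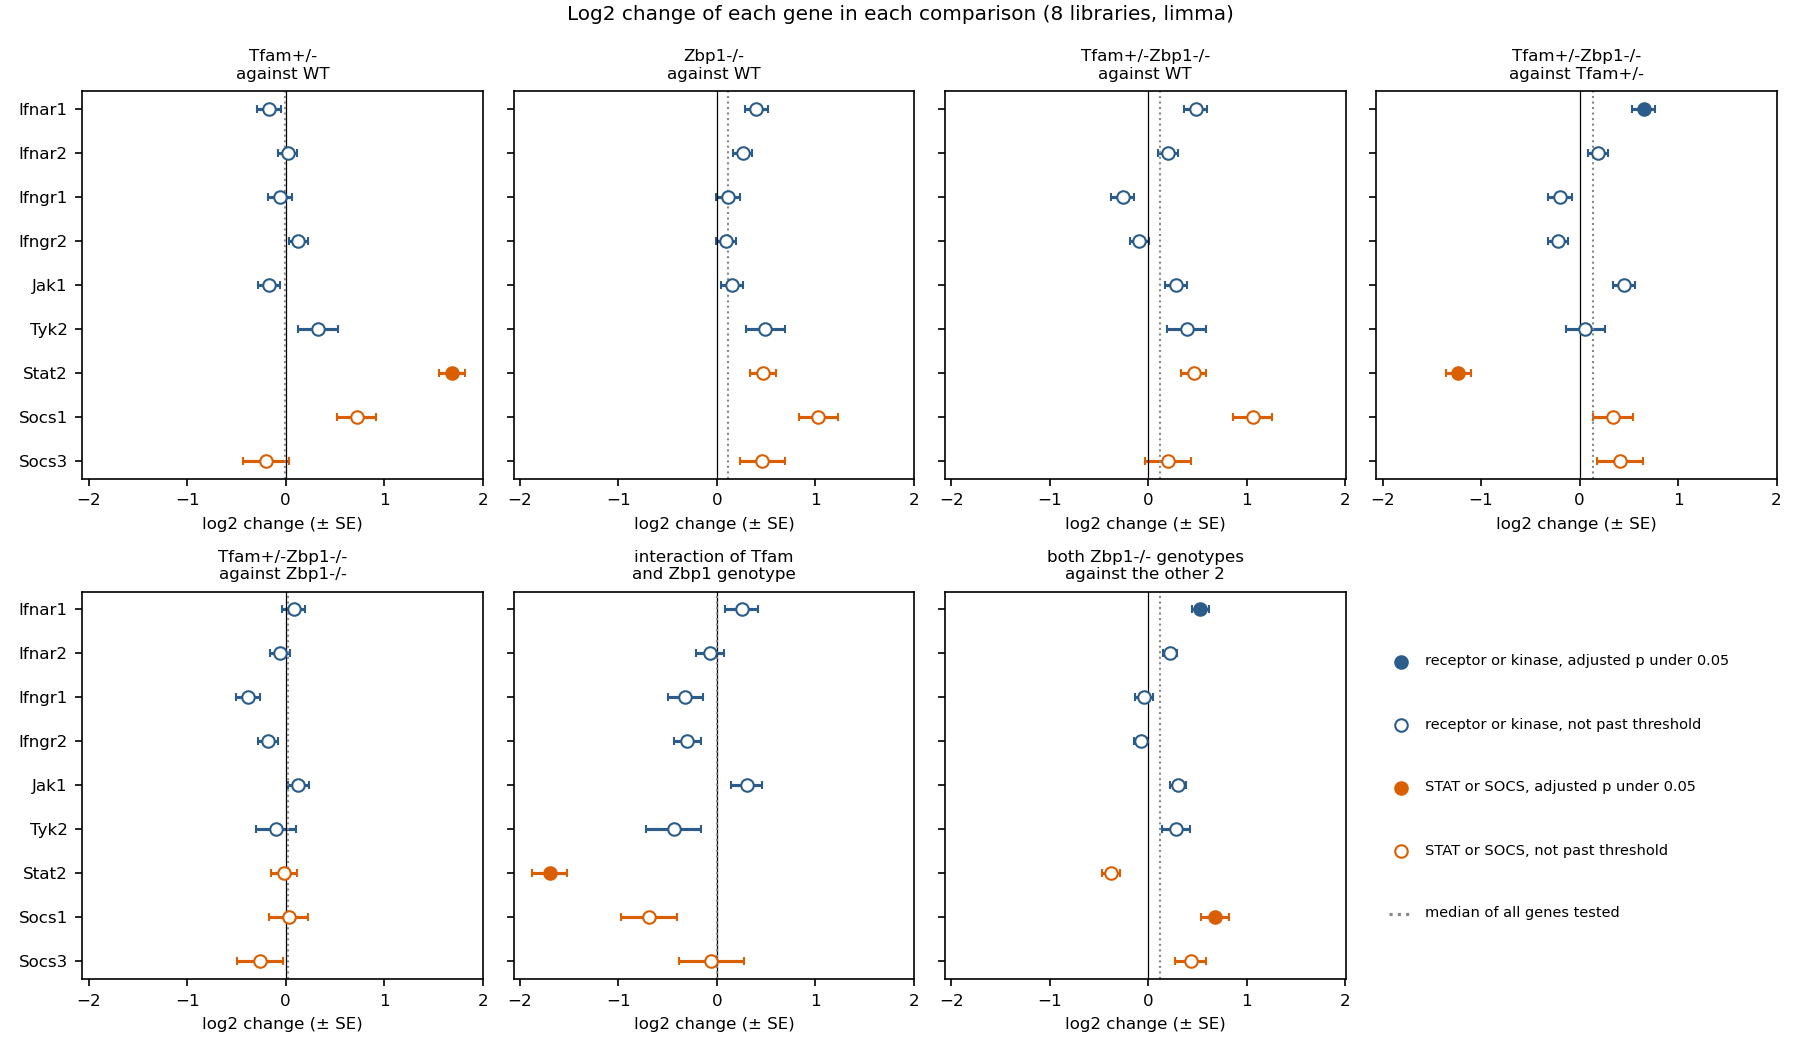
The log2 change of normalized counts (horizontal axis, bars are ± SE from limma) of the 9 genes (vertical axis) in each comparison, receptors and kinases in blue, Stat2, Socs1 and Socs3 in orange; filled points passed an adjusted p below 0.05 and the dotted line is the median of all genes tested. Stat2 stands apart in Tfam+/- against WT at 1.69, in Tfam+/-Zbp1-/- against Tfam+/- at -1.23 and in the interaction at -1.70.

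Socs1, an inhibitor that blocks the kinases directly, did not pass the test between any pair of genotypes. It read 35.3 and 43.9 normalized counts in the WT pair, 64.8 and 66.7 in the Tfam+/- pair, 71.5 and 92.8 in the Zbp1-/- pair and 84.2 and 82.5 in the double mutant pair. Both WT libraries were below the other 6, a property whose share among all genes tested was not computed. The log2 change against WT was 0.72 ± 0.20 (SE) in Tfam+/- (adjusted p = 0.3), 1.03 ± 0.20 in Zbp1-/- (0.075) and 1.06 ± 0.20 in Tfam+/-Zbp1-/- (0.061). Without the 2 libraries that share a shift these were 0.75, 0.84 and 1.06. At fewer than 100 normalized counts, Socs1 is the least abundant member, and counting error is larger for it than for the others.

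Socs3, an inhibitor best known for acting on receptors of the interleukin-6 family, had overlapping WT and Tfam+/- libraries. It read 352 and 339 in the WT pair, 376 and 239 in the Tfam+/- pair, 416 and 544 in the Zbp1-/- pair and 412 and 383 in the double mutant pair. The 2 Tfam+/- libraries lie on either side of WT. The log2 change was -0.20 ± 0.23 in Tfam+/- (adjusted p = 0.65), 0.46 in Zbp1-/- (0.31) and 0.20 in Tfam+/-Zbp1-/- (0.79). In Tfam+/- the direction turned to 0.12 without replicate 2, and without the 2 libraries that share a shift it was -0.53, which rests on the 239 of replicate 2 alone. Its interaction of -0.06 was 0.46 without those libraries.

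The 4 receptor and 2 kinase genes are set beside these. In Tfam+/- against WT the 6 genes had log2 changes from -0.17 to 0.33 with a median of -0.02, beside -0.01 over all genes tested, and none was called. The STAT and SOCS genes ran from -0.20 to 1.69 in the same comparison, with Stat2 alone called.

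Ifnar1, a chain of the type I receptor, was the receptor gene called. It read 1499 and 1533 in the WT pair, 1230 and 1476 in the Tfam+/- pair, 2119 and 1893 in the Zbp1-/- pair and 2153 and 2083 in the double mutant pair. All 4 libraries without Zbp1, from 1893 to 2153, were above the other 4, a property that 12.3% of all genes tested shared. Ifnar1 rose in Tfam+/-Zbp1-/- against Tfam+/- by 0.65 ± 0.12 (SE) on the log2 scale (limma adjusted p = 0.03). The call was lost after TMM rescaling (0.52, adjusted p = 0.057), with only the 2 genotypes in the fit (0.12), with the replicate block (0.096), without either WT library (0.095 and 0.096), without Tfam+/- replicate 1 (0.083), without either Tfam+/-Zbp1-/- library (0.25 and 0.21) and with the pairs averaged (0.66). Against WT the log2 change was 0.40 in Zbp1-/- (adjusted p = 0.17) and 0.48 in Tfam+/-Zbp1-/- (0.14), and 0.48 in both without the 2 libraries that share a shift.

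Ifnar2, the other chain, read 547 and 578 in the WT pair, 569 and 568 in the Tfam+/- pair, 687 and 660 in the Zbp1-/- pair and 667 and 629 in the double mutant pair. The 4 libraries without Zbp1 were again above the other 4, by a smaller distance, as in 12.3% of all genes tested. No comparison of Ifnar2 passed the test: the log2 change against WT was 0.02 in Tfam+/- (adjusted p = 0.94), 0.26 in Zbp1-/- (0.23) and 0.20 in Tfam+/-Zbp1-/- (0.49). TMM rescaling took the last 2 to 0.16 and 0.08, and without the 2 libraries that share a shift they were 0.29 and 0.20.

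Jak1, the kinase shared by both receptors, read 5585 and 5573 in the WT pair, 4579 and 5368 in the Tfam+/- pair, 6582 and 5790 in the Zbp1-/- pair and 6656 and 6873 in the double mutant pair. Its lowest values were in Tfam+/- and its highest in Tfam+/-Zbp1-/-, properties whose share among all genes tested was not computed. The log2 change in Tfam+/-Zbp1-/- against Tfam+/- was 0.45 ± 0.11 (SE) and did not pass (adjusted p = 0.077). Of 8 fits that left out a library it passed in the 1 without Tfam+/- replicate 2 (0.56, adjusted p = 0.047), and the highest adjusted p was 0.42. TMM rescaling gave 0.32 (0.19), and the change was 0.33 without the 2 libraries that share a shift. Across the 8 libraries the Pearson correlation of Jak1 with Ifnar1 was 0.959, a description over libraries that share genotypes and scaling.

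Tyk2, the other kinase of the type I receptor, read 385 and 407 in the WT pair, 560 and 444 in the Tfam+/- pair, 470 and 661 in the Zbp1-/- pair and 490 and 550 in the double mutant pair. Its highest values were in the 2 libraries that share a shift. The log2 change against WT was 0.33 in Tfam+/- (adjusted p = 0.56), 0.49 in Zbp1-/- (0.24) and 0.39 in Tfam+/-Zbp1-/- (0.49), and without those libraries 0.16, 0.25 and 0.39.

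Neither chain of the interferon gamma receptor passed the test in any comparison. Ifngr1, which binds the ligand, read 678 and 712 in the WT pair, 636 and 699 in the Tfam+/- pair, 809 and 699 in the Zbp1-/- pair and 608 and 551 in the double mutant pair. Both Tfam+/-Zbp1-/- libraries were the lowest, a property whose share among all genes tested was not computed. The log2 change against Zbp1-/- was -0.38 with adjusted p = 0.29. Without the 2 libraries that share a shift, that change was -0.48, against the single Zbp1-/- library at 809. Ifngr2, which signals once the ligand is bound, read 1386 and 1358 in the WT pair, 1544 and 1452 in the Tfam+/- pair, 1398 and 1518 in the Zbp1-/- pair and 1320 and 1255 in the double mutant pair. Its log2 change in Tfam+/- against WT was 0.13 (adjusted p = 0.57), and in the double mutant against Tfam+/- -0.22 (0.28).

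The 9 genes can be set in order of level only per length. In WT the mean normalized counts per kilobase of exon were 772 for Jak1, 364 for Ifngr2, 255 for Ifnar1, 244 for Ifngr1, 169 for Ifnar2, 120 for Socs3, 106 for Stat2, 57.7 for Tyk2 and 13.6 for Socs1, and no neighbours in this order overlapped. In Tfam+/-, Stat2 stood at 344 per kilobase, in place 3 behind Jak1 (688) and Ifngr2 (398), and Ifngr1 and Ifnar1 (234 and 228) overlapped. Ifnar1 in the double mutant came next after Jak1 at 357.

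The genes of Ifnar1, Ifnar2 and Ifngr2 lie together on chromosome 16. On GRCm38, Ifnar2 spans 91372783 to 91405589, Ifnar1 91485032 to 91510523 and Ifngr2 91547059 to 91564007, and Il10rb, a receptor chain for interleukin 10, lies between Ifnar2 and Ifnar1, so that the 4 genes span 191 kb. In the 4 libraries without Zbp1, Ifnar1 and Ifnar2 were above the other 4, as were 12.3% of all genes tested. Ifngr2 overlapped with the other 4. Il10rb was below, at 444 to 512 against 547 to 593 normalized counts (log2 change -0.27, limma adjusted p = 0.097). Of all genes tested, 2.45% were below in this way.

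A comparison added after the values were seen set both Zbp1-/- genotypes against the other 2, with 4 libraries a side, so its p-values are not independent evidence. Ifnar1 rose by 0.53 ± 0.09 (SE) on the log2 scale (limma adjusted p = 0.018) and Socs1 by 0.68 ± 0.14 (0.035), the 2 members of 9 called where 6.96% of all genes were called. Stat2 did not pass (log2 change -0.38, limma adjusted p = 0.059). After TMM rescaling Stat2 was called lower (-0.49, limma adjusted p = 0.034) and Socs1 was not called. Mean Stat2 in Zbp1-/- (879) and the double mutant (866) was above WT (631) and below Tfam+/- (2038). In 5 of 9 members all 4 libraries without Zbp1 were above the other 4: Ifnar1, Ifnar2, Jak1, Socs1 and Socs3. The summed macrophage and leukocyte markers ran from 3016 to 3791 without Zbp1 and from 5894 to 8274 with it, and their part in these differences was not tested. The property of lying above was shared by 12.3% of all genes, and the reverse by 2.45%. After TMM rescaling, which moved the median of all genes from 0.12 to 0.0, only Ifnar1 and Ifnar2 of the 9 kept non-overlapping groups, with a background of 5.74%. The call of Ifnar1 was lost with the replicate block (adjusted p = 0.065), when 1 WT or 1 double mutant library was left out (0.1 to 0.12) and with the pairs averaged (0.53). That of Socs1 held in 7 of 18 alternatives, the fit on 6 libraries among them, and was lost, among others, after TMM rescaling (0.073) and without any 1 library other than Zbp1-/- replicate 1 (0.057 to 0.16).

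In the other comparisons no member was called. The background was 1.06% of genes in Zbp1-/- against WT, 1.38% in Tfam+/-Zbp1-/- against WT and 0.415% in Tfam+/-Zbp1-/- against Zbp1-/-. At an unadjusted p below 0.05 the counts of members were 5, 4 and 1 of 9, beside 19.7%, 12.6% and 12.3% of all genes. The median log2 change over the 9 was 0.40, 0.28 and -0.06, beside 0.11, 0.12 and 0.02 over all genes.

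**Figure D3:**
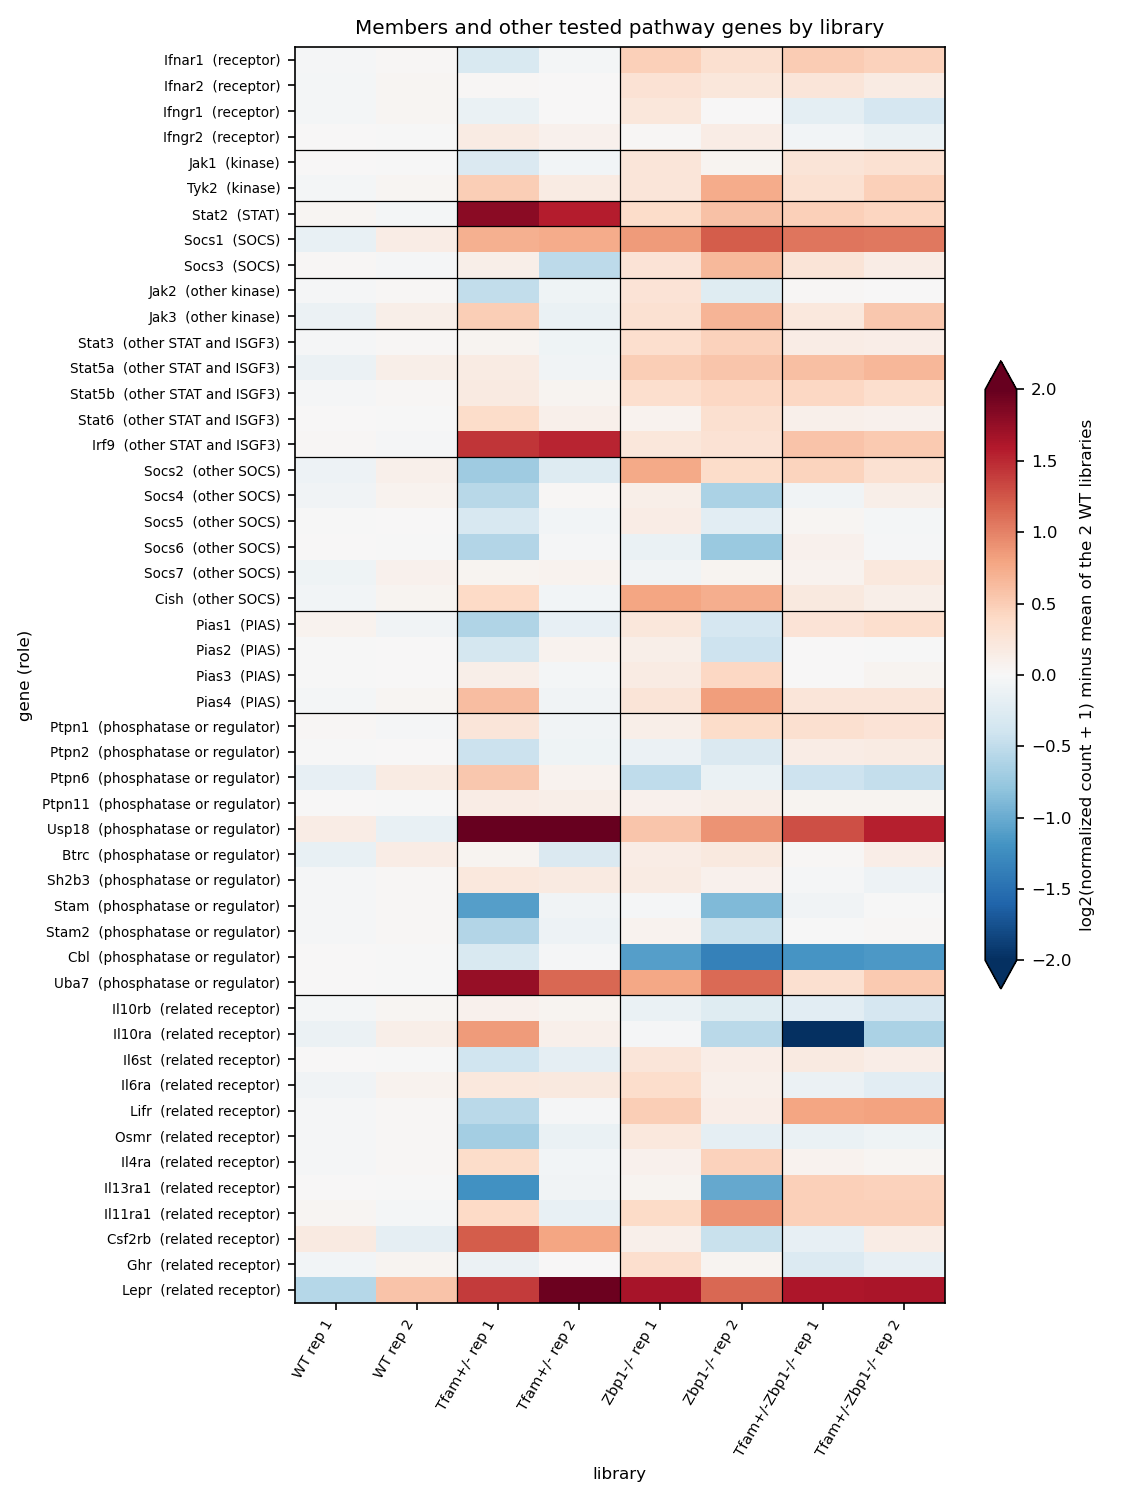
The log2 of normalized count + 1 minus the mean of the WT libraries (colour, capped at -2 and 2) in each of the 8 libraries (columns), with the 9 genes and the 40 other tested genes of the pathway as rows. The rows of Usp18, Irf9 and Stat2 are highest in the 2 Tfam+/- libraries.

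Other genes of the pathway were taken from a list of 64, all in the table, of which 40 passed the filter. In Tfam+/- against WT, 2 of the 40 rose and none fell, where 0.565% of all genes rose and 0.166% fell. They were Usp18, which removes ISG15 and blocks the type I receptor, by 4.81 ± 0.21 (SE) on the log2 scale (limma adjusted p = 8.0e-04), and Irf9, the DNA-binding partner of Stat2, by 1.48 ± 0.10 (0.0031). Usp18 read 26.4 and 21.3 in the WT pair, 761 and 625 in the Tfam+/- pair, 35.3 and 44.9 in the Zbp1-/- pair and 59.5 and 71.6 in the double mutant pair. Irf9 read 385 and 369, 1016 and 1088, 443 and 463, and 560 and 544 in the same order. Both genes were highest in the Tfam+/- libraries, as Stat2 was, with Pearson correlations to Stat2 over the 8 libraries of 0.984 and 0.971. The call of Irf9 was lost without WT replicate 1 (adjusted p = 0.06) and without WT replicate 2 (0.062), while that of Usp18 was lost only with the pairs averaged.

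Against Tfam+/-, the double mutant had 1 of the 40 genes higher and 3 lower past the threshold, where 3.32% of all genes were higher and 2.32% lower. Usp18 fell by 3.38 (limma adjusted p = 0.0016), Irf9 by 0.93 (0.0053) and Cbl, a ubiquitin ligase for activated receptors, by 1.00 (0.011), while Lifr, a receptor chain for leukaemia inhibitory factor, rose by 1.08 (0.026). The interaction was called for Usp18 (-4.11, adjusted p = 0.015) and Irf9 (-1.19, 0.03) alone among the 40. Of all genes, 0.663% were called for it. Cbl also fell by 1.23 in Zbp1-/- against WT (0.019). It was the 1 gene of the 40 called there, where 1.06% of all genes were called. In Tfam+/-Zbp1-/- against WT, Cbl fell by 1.16 (0.022) and Usp18 rose by 1.42 (0.035), where 1.38% of all genes were called. The call of Cbl in Zbp1-/- was lost with only the compared genotypes (limma adjusted p = 0.12) and with the replicate block (0.096). It was also lost without either Zbp1-/- library (0.052 and 0.091) and without either Tfam+/-Zbp1-/- library (0.1 each time). Jak2, the partner kinase of Jak1 at the interferon gamma receptor, and Stat3, a factor activated by interleukin-6, were called in no comparison: between the double mutant and Tfam+/- their log2 changes were 0.30 (adjusted p = 0.41) and 0.15 (0.4). No gene of the 40 was called between Tfam+/-Zbp1-/- and Zbp1-/-. Leaving out either Tfam+/-Zbp1-/- library ended the calls of Irf9, Cbl and Lifr against Tfam+/-. Leaving out either WT library ended those of Cbl and Usp18 against WT. The interaction calls of Usp18 and Irf9 were lost without any 1 WT or Tfam+/-Zbp1-/- library and without Zbp1-/- replicate 2. In these fits the interaction ran from -4.25 to -3.94 for Usp18 and from -1.22 to -1.16 for Irf9. Both calls were also lost with the replicate block (limma adjusted p = 0.07 and 0.15). The call of Lifr was also lost with only the compared genotypes (0.073), with the replicate block (0.077), without either WT library (0.076) and without Tfam+/- replicate 1 (0.066).

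In the added comparison 3 of the 40 rose (Stat5a, Socs2 and Lifr) and 3 fell (Cbl, Usp18 and Irf9), where 5.13% of all genes rose and 1.82% fell. Usp18 and Irf9 were lower only beside the Tfam+/- pair. Mean Usp18 was 40.1 in Zbp1-/- and 65.6 in the double mutant, above 23.8 in WT. Mean Irf9 was 453 and 552, above 377 in WT. Cbl, at means of 367 and 383, was below both WT (859) and Tfam+/- (771). The 3 rises were lost after TMM rescaling (limma adjusted p = 0.053, 0.065 and 0.058), with the replicate block (0.071, 0.095 and 0.087) and without any 1 WT or double mutant library (0.079 to 0.17). The call of Irf9 was lost in 11 of 18 alternatives, and those of Cbl and Usp18 only with the pairs averaged.

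Transcripts for the ligands were scarcely seen. Of 21 interferon genes listed, 17 were listed at 0 in all 8 libraries, Ifnb1 and Ifng among them, and the highest value of any was 3.71 normalized counts, for Ifnz. None passed the filter. In the fit without a filter the 4 ligands above 0 were tested in each comparison and none was called (smallest adjusted p = 0.17 by limma). Over all 7 comparisons, 7 of these tests had an unadjusted p below 0.05, on values from 0 to 3.71 normalized counts. In the same fit, 1533 to 3634 of 18320 genes per comparison had such a p.

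The genes most like Stat2 over the 8 libraries, by Pearson correlation among 13258 other tested genes, were Lgals3bp (0.997), Bst2 (0.993), Helz2 (0.992), Igtp (0.99) and Ifi35 (0.986). Stat2 and Socs1 had a correlation of 0.326. The 5 most like Socs1 were Rab4a (0.977), Drosha (0.974), Entpd3 (0.971), Macrod1 (0.969) and Acat2 (0.967). Those most like Socs3 were Accs (0.992), Arid5a (0.989), Gm16740 (0.986), Oplah (0.985) and Dennd4b (0.982). These correlations describe 8 libraries in 4 genotypes.

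**Figure D4:**
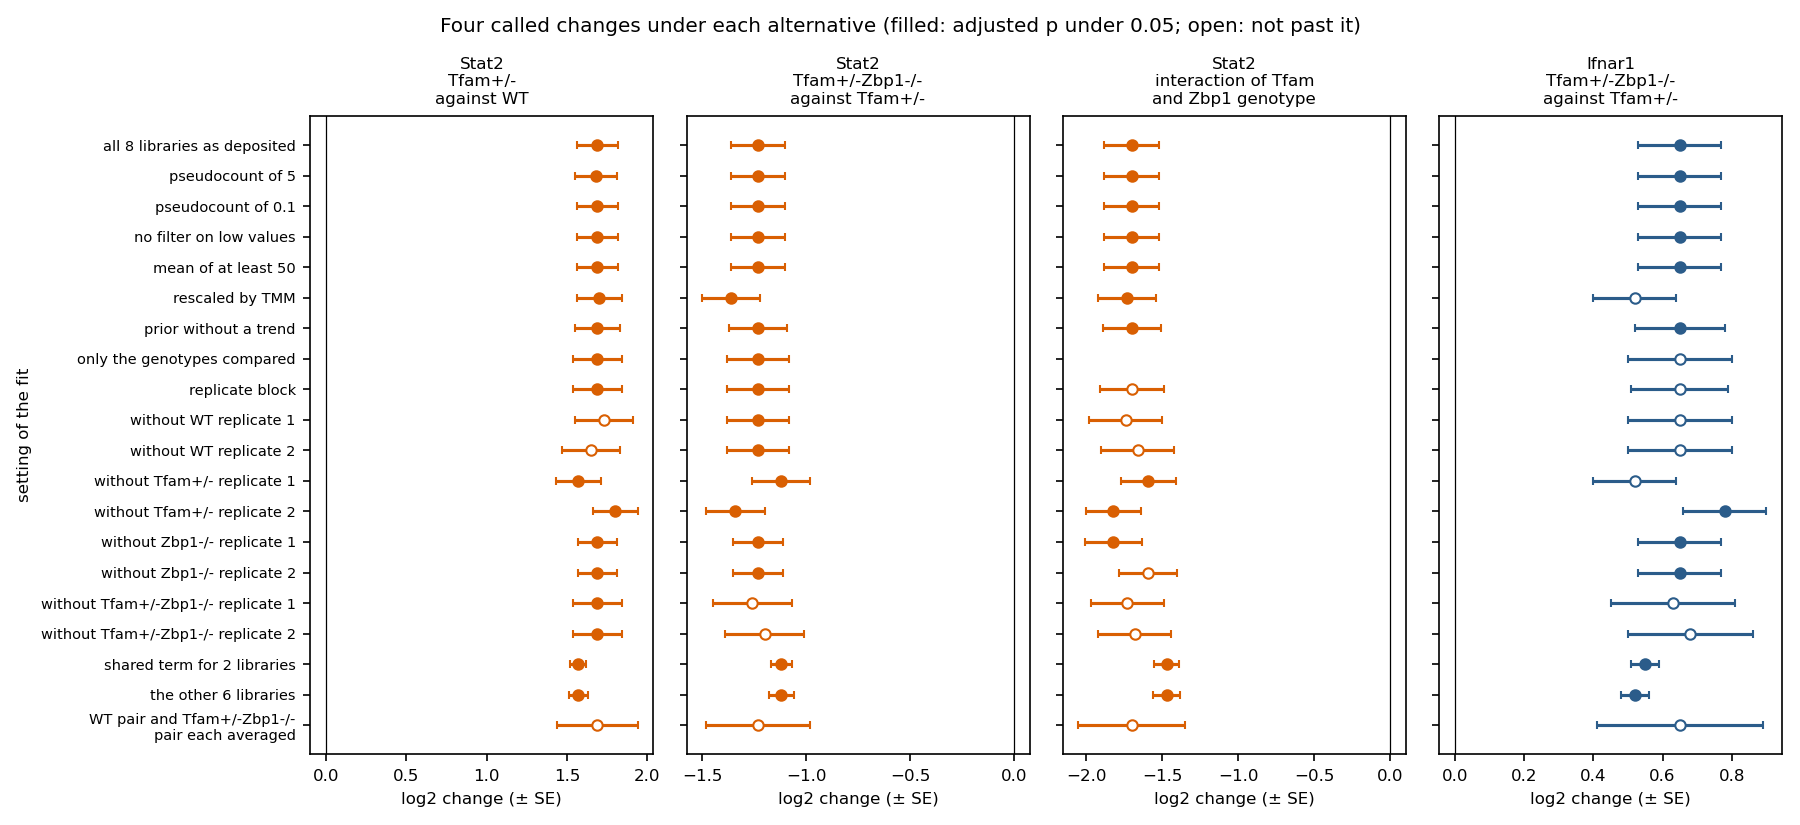
The log2 change (horizontal axis, bars are ± SE) of Stat2 in 3 comparisons and of Ifnar1 in 1, under each setting of the fit (vertical axis); filled points passed an adjusted p below 0.05 and open points did not. Stat2 in Tfam+/- against WT passed in 16 of 19 alternatives and Ifnar1 in Tfam+/-Zbp1-/- against Tfam+/- in 10 of 19, with the sign kept in each; among those that passed are the fit on 6 libraries and that with a shared term, whose spread comes wholly or mostly from the WT and double mutant pairs.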

How the data were processed

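RNA was sequenced from untreated primary embryonic fibroblasts of 4 genotypes, 2 libraries each, grouped by the genotype label. Per the series' design text, reads were aligned to mm10 (RefSeq) by STAR within RNAseq Alignment 2.0.0, and RNA-seq Differential Expression 1.0.0 gave the comparisons. The submitters' processing notes name STAR 2.6.1a and Salmon. The values used are the authors' normalized counts, a non-negative signal deposited per gene; their scaling is not stated in these sources, so raw depth is unknown and no count test was run.

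Genes with a mean of at least 10 (13267 of 24972) were tested on log2(value + 1) with limma 3.58.1 in R 4.3.3 (lmFit, eBayes with a trend, all 4 genotypes in 1 fit, 4 residual degrees of freedom), Benjamini-Hochberg adjusted over all genes; called means an adjusted p below 0.05. Fold changes are on this scale. The fit was also run on simulated data with known changes and independent noise, of the same spread in every library. Those data had neither the unequal pairs nor the shared shift seen here, so the run cannot show how the fit performs under them. TMM factors were computed by the published formula on the tested genes. An exact permutation test of 2 against 2 cannot go below p = 0.333. The members and lists were chosen with earlier results of these data known. Named genes are the 9 members, Irf9, Usp18, Il10rb, Jak2 and Stat3, the other pathway genes called in a comparison, Tfam and Zbp1, and the 5 genes most correlated with Stat2, Socs1 and Socs3 each; Ifnb1, Ifng, Ifnz, Stat5a and Socs2, and the comparison of both Zbp1-/- genotypes with the other 2, were chosen after values were seen.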

Additional observations from a re-analysis of the deposited data

Results flagged for a closer look

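With all 8 libraries, the change of Stat2 with the Tfam allele differed between the Zbp1 backgrounds by a test of the difference itself. The interaction was -1.70 ± 0.18 (SE) on the log2 scale with adjusted p = 0.02 by limma: the log2 change was 1.69 in the presence of Zbp1 and -0.02 in its absence. The call was lost with the replicate block (limma adjusted p = 0.11), with the pairs averaged (0.85) and without Zbp1-/- replicate 2 (0.062). It was also lost without either WT library (0.2 and 0.18) and without either Tfam+/-Zbp1-/- library (0.22 and 0.21). Both Tfam+/- libraries, at 2198 and 1877 normalized counts, were above the other 6, and the Tfam+/-Zbp1-/- libraries, at 881 and 850, lay within the range of the Zbp1-/- libraries, 809 and 949. The summed macrophage and leukocyte markers differed between the same groups, and their part was not tested.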

How the results depend on the processing

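Chosen after seeing the data were 3 alternatives: a term shared by Tfam+/- replicate 1 and Zbp1-/- replicate 2, the fit on the other 6 libraries, and the WT and Tfam+/-Zbp1-/- pairs each averaged. On the 6 libraries, and for Tfam+/-Zbp1-/- against WT with only those genotypes, all of the spread comes from the WT and Tfam+/-Zbp1-/- pairs, which differ by little more than counting noise, so the counts from these fits are not support for a difference between cultures; with the shared term those pairs supply 2 of 3 residual degrees of freedom. Counts of members called follow, of 9. In Tfam+/- against WT the count of 1 became 3 with the shared term or 6 libraries and 0 with averaging. In Zbp1-/- against WT 0 became 7 and 8, and in Tfam+/-Zbp1-/- against WT 0 became 7 and 8, 8 with only the compared genotypes fitted and 1 with a prior without a trend. Between Tfam+/-Zbp1-/- and Tfam+/- 2 became 1 with TMM, with only those genotypes and with the replicate block, 8 with the shared term or 6 libraries and 0 with averaging. Between Tfam+/-Zbp1-/- and Zbp1-/- 0 became 1 with the shared term or 6 libraries. The interaction count of 1 became 0 with the replicate block or averaging and 3 with the shared term or 6 libraries. In both Zbp1-/- genotypes against the other 2, 2 became 1 without a filter, 0 with the replicate block or averaging, and 7 with the shared term or 6 libraries. Without 1 library the counts ran from 0 to 1 (Tfam+/- against WT), 0 to 3 (Tfam+/-Zbp1-/- against Tfam+/-), 0 to 1 (interaction) and 0 to 3 (both Zbp1-/-), and stayed 0 elsewhere. The cause was not tested. Calls over all genes with 1 library left out ran from 12 to 98 in Tfam+/- against WT (97 with all), 0 to 223 in Zbp1-/- against WT (141), 0 to 256 in Tfam+/-Zbp1-/- against WT (183), 12 to 874 in Tfam+/-Zbp1-/- against Tfam+/- (748), 0 to 69 in Tfam+/-Zbp1-/- against Zbp1-/- (55), 0 to 126 in the interaction (88) and 156 to 1100 in the added comparison (923). On 6 libraries they were 2049, 4548, 5946, 5779, 3102, 2534 and 6799 in that order. The replicate numbers did not pair samples: deviations of Tfam+/- and Zbp1-/- libraries correlated at -0.70, and those of WT and Tfam+/-Zbp1-/- at -0.37. Of the 9 by 7 member results, 25 values under alternatives reversed sign. In Tfam+/- against WT these were Ifnar2 (-0.02 to 0.05 with 1 library left out), Ifngr1 (-0.13 to 0.01 likewise, 0.03 with the shared term, 0.01 with 6 libraries) and Socs3 (-0.53 to 0.12). For Zbp1-/- against WT it was Ifngr2 -0.02 (TMM). For Tfam+/-Zbp1-/- against Tfam+/- it was Tyk2, -0.07 with TMM, -0.11 to 0.23 with 1 library left out, and -0.02 without Tfam+/-Zbp1-/- replicate 2. Between Tfam+/-Zbp1-/- and Zbp1-/- they were Ifnar1 (-0.001 to 0.16 with 1 library left out, -0.03 and -0.001 with the shared term and 6 libraries), Tyk2 (-0.35 to 0.14, then 0.10 and 0.14), Stat2 (-0.13 to 0.10, 0.01 without Tfam+/-Zbp1-/- replicate 2, then 0.10 and 0.10) and Socs1 (-0.15 to 0.22). The interaction of Socs3 ran from -0.38 to 0.27 with 1 library left out, 0.14 among them, and was 0.46 with the shared term and with 6 libraries. In the added comparison Ifngr1 ran from -0.10 to 0.01.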
